A study of Mus musculus with 27 samples.

Results

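Hepatocyte organoids (HepOrgs) kept at passage 2 for 1 week in the expansion medium HM-Wnt were compared with hepatocytes taken straight from the mouse liver. The aim was to see which genes the cultured cells expressed at other levels than the cells they descend from. The 6 libraries of these groups, 3 of each, were chosen by their sample titles from the 27 libraries of the series that could be tied to a sample. All 21848 genes of the count table entered the comparison, and 13405 of them had enough counts to be tested. The HepOrgs were grown from primary hepatocytes of wild-type C57BL/6 mice, embedded in Matrigel, and collected at passage 2 after a last 7 days in HM-Wnt. The study describes growth in HM-Wnt up to passage 2, so those 7 days are not their whole time in this medium. By the study's methods, unwanted cholangiocyte organoids or mesenchyme could appear in such cultures up to passage 2 and were picked out by hand. When it sorted HepOrg cultures of a reporter strain, cells with the cholangiocyte surface marker EpCAM were a sizeable share of single cells. In its hepatocyte isolation they were a very small share of all events. How many such cells entered the libraries compared here is not known. HM-Wnt is AdDMEM/F12 with HEPES, penicillin and streptomycin, Glutamax, B27 and N-acetylcysteine, to which gastrin, EGF, FGF7, FGF10, HGF, nicotinamide, conditioned media holding RSPO1 and WNT3a, the GSK3 inhibitor CHIR99021, the TGF-beta receptor inhibitor A83-01 and the ROCK inhibitor Y-27632 were added. The freshly isolated hepatocytes came from the same strain by collagenase perfusion and were never cultured. The study used mice of both sexes, and the sample titles do not give the sex. All 3 carry a wild-type title, but the genotype label of fresh library 3 reads MDR2-het, so its genotype is uncertain. Whole preparations were sequenced in bulk, so fewer cells of a type and less RNA per cell cannot be told apart. The labels do not say that libraries came from separate mice or cultures, so the p-values measure only the spread between libraries.

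In the body, hepatocytes make most plasma proteins, clear drugs, produce bile acids and urea, and release glucose into blood. They divide this work along the lobule: periportal cells, near the incoming blood, favour gluconeogenesis and urea synthesis, while pericentral cells, where Wnt signals act, favour drug metabolism and glutamine synthesis. Hepatocytes placed in culture are known to lose part of this specialised program, and growth factors or Wnt agonists are added to let them divide.

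Total counts were 30289364 to 48767576 in the HepOrg libraries and 34082074 to 53113534 in the fresh libraries. The 10 most counted genes held 23.9 to 32.5% of counts in HepOrgs and 17.9 to 19.3% in fresh hepatocytes. Levels are given below as CPM, the counts scaled to the TMM-corrected size of each library, in the order of libraries 1, 2 and 3, and where values are joined by "against" those of the HepOrgs come first. Fresh library 2 stood apart in markers of other liver cells: the summed CPM of the Kupffer cell and leukocyte markers was 85.3, 911 and 338 in the 3 fresh libraries, and that of the red cell markers was 0.575, 61.8 and 2.54. Leaving out fresh library 2 gave 6514 genes past the threshold and leaving out fresh library 3 gave 5897, against 6658 with all libraries. Genes whose exons lie almost wholly inside another gene were often listed with few counts: a mean of at least 10 counts was reached by 17.6% of the 1341 genes with over 90% of their exon bases inside the span of another gene, and by 54.7% of the 15597 genes with no such overlap. Genes with less overlap did not show this, at 84.1% of 3931 genes with up to 50% and 79.8% of 836 with 50 to 90%. Well-known liver genes such as Serpina3k, Serpind1, Oat and B2m were listed at 0 counts in all 6 libraries, and nothing can be read from them.

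At an adjusted p under 0.05 in edgeR's quasi-likelihood test of the counts, 49.7% of the tested genes differed, 24.9% higher in HepOrgs and 24.8% lower, and the median log2 fold change of all tested genes was 0.02. The TPM values were filtered in their own way and tested with limma, without TMM factors. On log2(TPM + 1) the median of all genes was 0.40 and 76.5% of the calls were higher, against 50.1% with counts. The TMM factors used with the counts were 1.04, 0.897 and 1.08 in HepOrgs and 0.786, 0.748 and 0.828 in fresh hepatocytes. The edgeR shares are the background for every count of members below, and each log2 fold change is HepOrgs minus fresh hepatocytes with its standard error. The tested genes whose CPM did not overlap between the groups came to 54.5%. Of those past the threshold, 236 genes had a log2 fold change of at least 5 and 297 of at most −5.

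The 10 highest and 10 lowest log2 fold changes were taken among genes past the threshold whose groups did not overlap and whose mean log2 CPM reached 5, so each of these genes had to be abundant in 1 of the groups. Cdh17, an intestinal and liver cadherin at chr4:11758147-11817895 (GRCm39), was measured at 271, 451 and 360.0 CPM in HepOrgs and had no count in any fresh library, which makes it at least 3972-fold higher (adjusted p = 3.3e-08). Sprr1a, an epithelial cornified-envelope protein, was at 86.7, 210.0 and 319 CPM in HepOrgs against 1 count in all fresh libraries. It was 22541-fold higher by the ratio of summed levels, with an exact 95% counting interval of 4045 to 890346. Ly6d, a GPI-anchored surface protein, stood at 979.7, 1162 and 1144 CPM in HepOrgs and 0.264, 0.903 and 0.359 CPM in fresh hepatocytes (log2 fold change 11.004 ± 0.48, adjusted p = 2.8e-08). Gpc3, a heparan sulphate proteoglycan of fetal liver, had 1146, 451 and 984 CPM against 0.0959, 0.942 and 0.304 CPM (log2 fold change 10.86 ± 0.95, adjusted p = 1.7e-06). For both genes every HepOrg library was far above the fresh ones. Cpe, a carboxypeptidase that processes peptide hormones, varied more among HepOrgs, with 77.8, 459 and 485 CPM, against 0.0479, 0.196 and 0.166 CPM in fresh cells (log2 fold change 10.92 ± 1.16, adjusted p = 8.4e-06). Library 1 was the lowest of the 3 HepOrg libraries for Cpe and still far above the fresh range. Akr1c18, a steroid reductase, was by contrast almost equal in the 3 HepOrg libraries, at 101, 102 and 102 CPM, and at 0.168, 0 and 0 CPM in fresh cells (log2 fold change 9.83 ± 0.62, adjusted p = 1.6e-07). A2m, a protease inhibitor, Slc7a11, the cystine importer, and Psrc1, a spindle protein, had log2 fold changes of 10.00, 9.81 and 9.47. Stc1, a secreted glycoprotein with 1 count in all fresh libraries, was 8755-fold higher by the ratio of summed levels, with an exact 95% counting interval of 1571 to 345832.

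The 10 lowest under the same limit were all enzymes. Car3, a carbonic anhydrase at chr3:14928489-14937595, was at 11583, 7961 and 12779 CPM in fresh hepatocytes and had no count in any HepOrg library, at least 132463-fold lower (adjusted p = 6.0e-08). Cyp2f2, a periportal cytochrome P450, fell from 3597, 4316 and 3430.1 CPM to 0.487, 0.368 and 0.189 CPM (log2 fold change −13.25 ± 1.07, adjusted p = 9.0e-07). Pck1, the rate-limiting enzyme of gluconeogenesis, fell from 3217, 2290.4 and 1479 CPM to 0.205, 0.442 and 0.0189 CPM (log2 fold change −13.22 ± 1.00, adjusted p = 5.5e-07). None of these genes kept as much as 1 CPM in any HepOrg library. Otc, an enzyme of the urea cycle, was at 622, 824 and 581 CPM in fresh and 0.154, 0 and 0.0378 CPM in HepOrg libraries (log2 fold change −12.53 ± 1.36, adjusted p = 2.5e-05). Sds, which breaks down serine for gluconeogenesis, was at 423, 324 and 307 CPM in fresh and 0.0512, 0 and 0.0378 CPM in HepOrg libraries (log2 fold change −12.10 ± 0.69, adjusted p = 7.8e-08). Sult2a8, a hepatic sulphotransferase, and Ces3a, a carboxylesterase, had log2 fold changes of −13.49 and −12.26. Ces3b, its neighbour in the family, had 2 counts in all HepOrg libraries and was 27003-fold lower by the ratio of summed levels, with an exact 95% counting interval of 7475 to 222975. Inmt, an N-methyltransferase with 1 count in HepOrgs, was 32356-fold lower by the ratio of summed levels, with an exact 95% counting interval of 5807 to 1278032. Cyp26a1, which degrades retinoic acid, had no count in HepOrgs and was uneven in fresh cells, at 69.9, 895 and 53.6 CPM, at least 4172-fold lower (adjusted p = 1.4e-04); fresh library 2 carried most of its level.

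**Figure D1:**
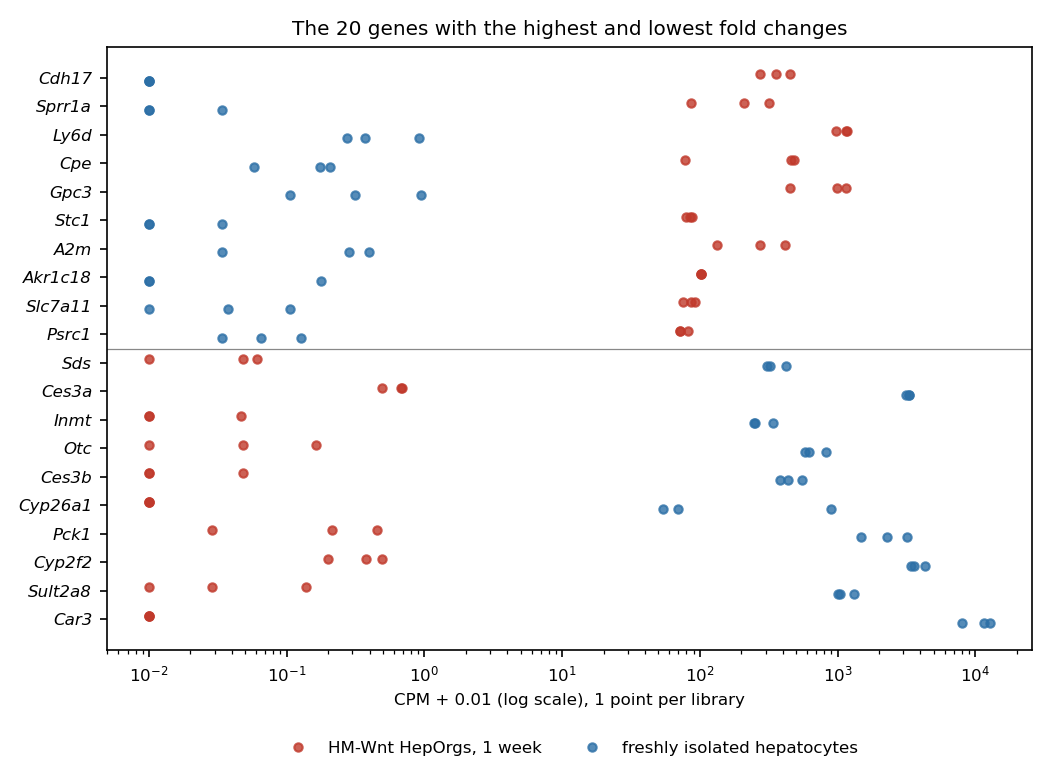
CPM plus 0.01 in each of the 6 libraries, on a log axis, for the 10 genes with the highest and the 10 with the lowest log2 fold change chosen by the naming rule. Points are libraries, and the HepOrg and fresh libraries lie apart for every gene shown; Cdh17 has no count in fresh cells and Car3 none in HepOrgs.

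Several of the most abundant liver transcripts did not pass the threshold in the counts. The 5 with the highest average level among genes not past it were Alb, Scd1, Fga, Hpx and Ahsg, which encode albumin, a fatty acid desaturase, a fibrinogen chain, hemopexin and fetuin-A. Fga was at 14012, 9987 and 10610.4 CPM in HepOrgs and 9178, 9432 and 10071 CPM in fresh hepatocytes (log2 fold change 0.27 ± 0.37, adjusted p = 0.563). Ahsg was at 16669, 11707 and 12874 CPM in HepOrgs and 12412, 11096 and 11484 CPM in fresh cells (log2 fold change 0.24 ± 0.25, adjusted p = 0.457). Scd1 was at 8092, 7858 and 7451 CPM in HepOrgs and 5212, 10676 and 4754 CPM in fresh cells (log2 fold change 0.18 ± 0.39, adjusted p = 0.718). For all 3 the ranges of the groups overlapped. On log2(TPM + 1), tested with limma, Fga, Ahsg and Scd1 passed as higher (differences 0.79 with adjusted p = 0.0409, 0.75 with adjusted p = 0.00783 and 0.81 with adjusted p = 0.0416). These calls therefore differ between the counts with TMM factors and the TPM without them. By mean TPM, which is per unit of gene length, mt-Nd1, Apoa1, Apoe and mt-Cytb were among the top 5 in both groups, joined by Trf in HepOrgs and by Apoa2 in fresh hepatocytes. Apoa2, an apolipoprotein of high-density lipoprotein, fell from 16888, 10955 and 16558 CPM to 903, 2005 and 494 CPM (log2 fold change −3.71 ± 0.70, adjusted p = 7.2e-04).

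The gene lists covered functions of adult liver, growth, stress, epithelial structure and the cell types of the liver. Of 42 lists with 1004 genes in the table, 938 genes could be tested.

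**Figure D2:**
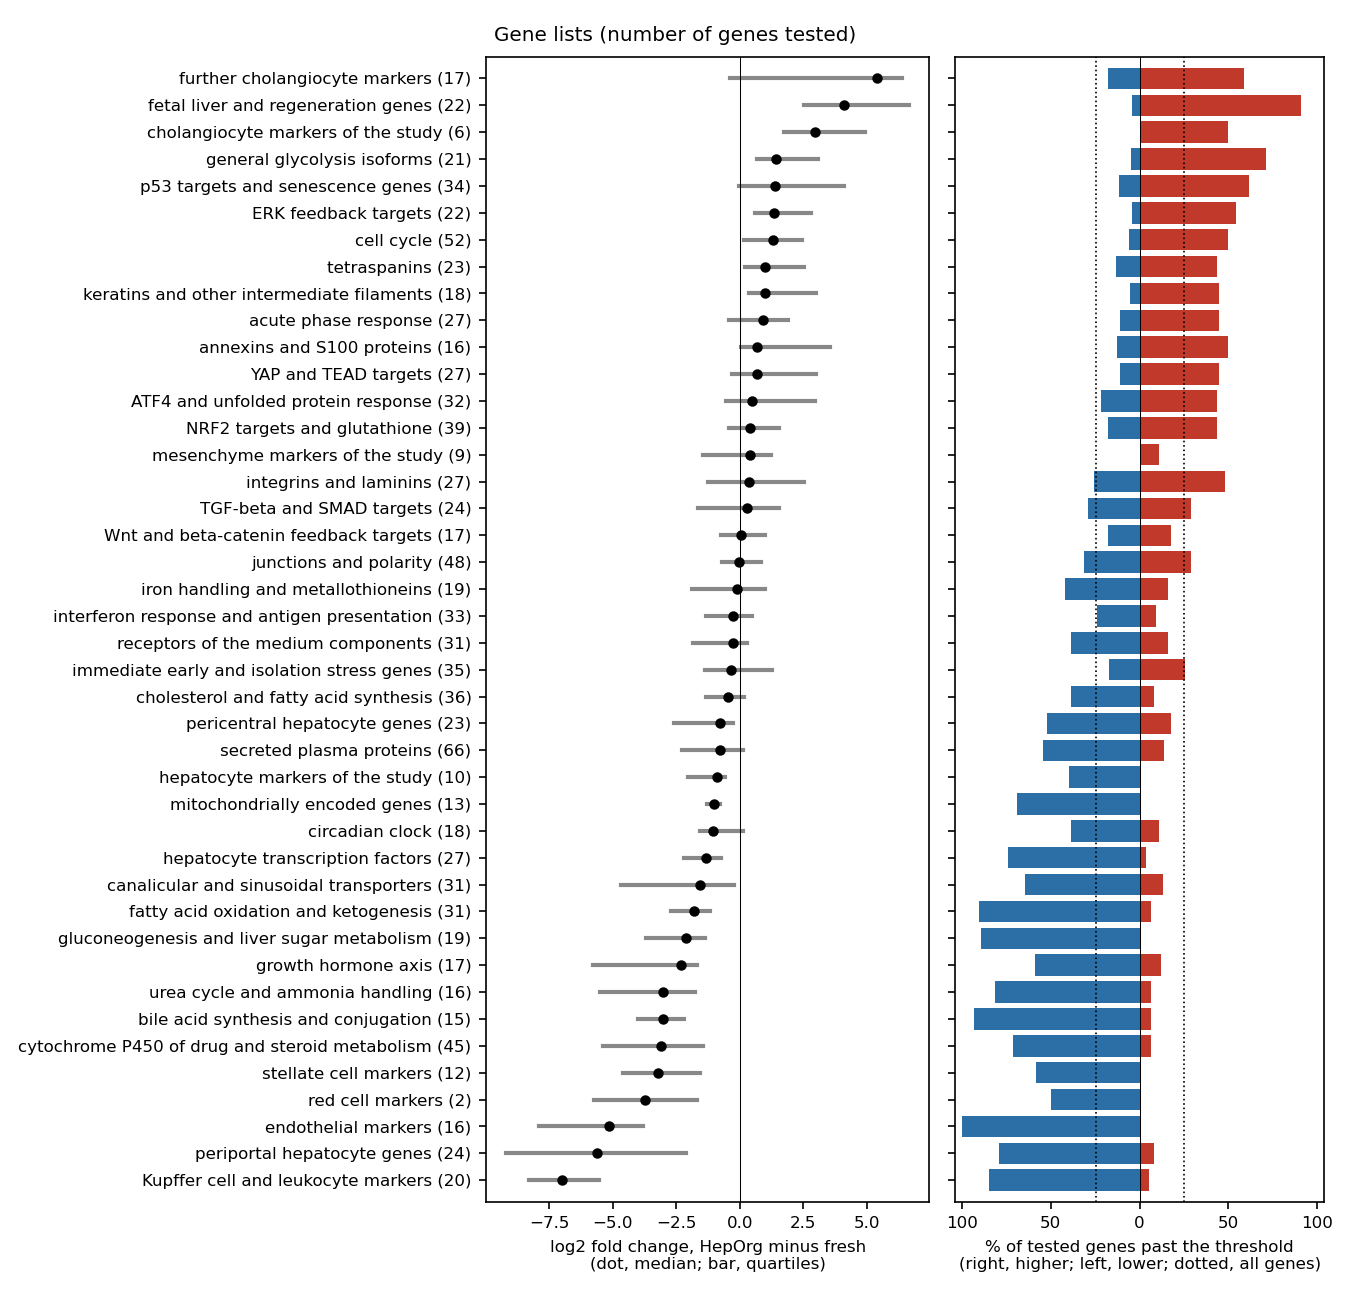
For each gene list, the median log2 fold change (HepOrgs minus fresh) of its tested members with a bar over the quartiles, beside the percent of tested members that were higher (to the right) and lower (to the left), with dotted lines at the shares of all tested genes. Endothelial, Kupffer cell and periportal lists have the lowest medians, and the further cholangiocyte and fetal liver lists the highest.

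Secreted plasma proteins were more often lower than higher, while their total overlapped between groups. Their summed CPM was 319310.2, 420747 and 274702 in HepOrgs and 303416, 295499 and 272611 in fresh cells. Of 66 tested members, 9 were higher and 36 lower (median log2 fold change −0.80), and 5 were higher without HepOrg library 2 or without fresh library 3. Trf, which encodes transferrin, rose from 54394, 49123 and 53709.6 CPM to 110745, 179306 and 105388 CPM (log2 fold change 1.33 ± 0.28, adjusted p = 0.00146). Hp, encoding haptoglobin, rose from 4576, 5871 and 2938 CPM to 19760.4, 16478 and 14071 CPM (log2 fold change 1.91 ± 0.46, adjusted p = 0.00367). Igfbp1, an insulin-responsive IGF-binding protein, was at 1437, 988 and 2387 CPM in HepOrgs and 61.4, 45.7 and 9.97 CPM in fresh cells (log2 fold change 5.36 ± 0.58, adjusted p = 9.7e-06). All 3 HepOrg libraries were above all fresh libraries for these genes. In the other direction, Igfbp2 fell from 949.7, 1483 and 867 CPM to 0.948, 6.51 and 1.84 CPM (log2 fold change −8.48 ± 1.14, adjusted p = 5.7e-05). Apoa5, a regulator of plasma triglyceride, went from 4870.1, 1697 and 3901 CPM to 11.7, 12.5 and 10.4 CPM (log2 fold change −8.24 ± 0.68, adjusted p = 1.1e-06). Pon1, a paraoxonase of high-density lipoprotein, and Igfals, the acid-labile subunit that carries IGF in blood, had log2 fold changes of −7.87 and −5.79. The related binding proteins Igfbp1 and Igfbp2 thus differed in opposite directions.

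Promoters of plasma protein genes are a textbook setting for hepatocyte nuclear factor 1, so the 250 bases before the start of each gene were searched on both strands for GTTAATNAT. These letters stood in 0.737% of 32851 RefSeq promoters, and in any window of 0.866% of 27025 genes. The shares of genes below count a gene where any of its windows matched. Of the 52 list members with a window, 6 held the motif: 1 of the 5 that were higher, 2 of the 29 that were lower and 3 of the 18 not past the threshold. Over all tested genes with a window it stood in 0.462% of those higher, 1.16% of those lower and 0.502% of the others. The windows of Igfbp1 (chr11:7147537-7147786, plus strand, GRCm39) and of the fetal albumin relative Afp (chr5:90638323-90638572, plus strand) are shown because both genes were higher in HepOrgs, with the match in capitals and the letters running toward the gene. A match describes the letters only.
Igfbp1: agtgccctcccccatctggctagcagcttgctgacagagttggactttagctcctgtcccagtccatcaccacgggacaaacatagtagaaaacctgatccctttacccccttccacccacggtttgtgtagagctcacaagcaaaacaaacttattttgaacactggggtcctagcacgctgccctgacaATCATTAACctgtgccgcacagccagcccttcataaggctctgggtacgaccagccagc
Afp: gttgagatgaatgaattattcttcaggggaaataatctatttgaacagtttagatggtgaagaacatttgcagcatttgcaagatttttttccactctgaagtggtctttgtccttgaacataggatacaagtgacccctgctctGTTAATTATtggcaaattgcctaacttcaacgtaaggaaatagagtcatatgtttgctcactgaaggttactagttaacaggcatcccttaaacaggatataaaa

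Hepatocyte transcription factors were mostly lower: of 27 tested members, 1 was higher and 20 lower (median −1.33). The only member that was higher was Ahr, the receptor of dioxins and other aryl hydrocarbons, at 187, 209 and 191 CPM in HepOrgs and 12.1, 28.8 and 24.8 CPM in fresh hepatocytes (log2 fold change 3.16 ± 0.28, adjusted p = 1.7e-06). Nr0b2, the SHP repressor that acts downstream of bile acid sensing, fell from 84.8, 146 and 83.3 CPM to 0.384, 1.91 and 1.34 CPM (log2 fold change −6.40 ± 0.52, adjusted p = 8.7e-07). Cebpa, a C/EBP factor of mature hepatocytes and of their growth arrest, fell from 192, 145 and 168 CPM to 12.9, 19.2 and 16.4 CPM (log2 fold change −3.38 ± 0.20, adjusted p = 9.4e-08). The libraries of the groups did not overlap for these factors. Hnf4a, the central regulator of hepatocyte identity, had a log2 fold change of −1.05 ± 0.22 (adjusted p = 0.00137). Of the 10 hepatocyte markers that the study used, 4 were lower and 0 higher (median −0.91). Abcb4, the gene of MDR2, was at 266, 195 and 204 CPM in HepOrgs and 264, 215 and 116 CPM in fresh cells (log2 fold change 0.16 ± 0.27, adjusted p = 0.639). Fresh library 3, with the MDR2-het label, was the lowest for Abcb4, and whether genotype plays a part was not tested.

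Cytochrome P450 genes of drug and steroid metabolism were among the most reduced groups. Their summed CPM was 5638, 10659 and 4535 in HepOrgs and 46359, 45638 and 46285 in fresh cells. Of 45 tested members, 3 were higher and 32 lower (median −3.11). Cyp1a1, a classical target of AHR, was at 266, 77.8 and 53.99 CPM in HepOrgs and 2.18, 1.37 and 1.93 CPM in fresh cells (log2 fold change 6.13 ± 0.83, adjusted p = 5.9e-05). Its liver relative Cyp1a2 ran the other way, from 1651, 1894 and 2519 CPM in fresh cells to 120.2, 86.9 and 16.3 CPM in HepOrgs (log2 fold change −4.76 ± 0.95, adjusted p = 0.00114). Cyp2b10, a target of the CAR receptor, was 182, 175 and 99.2 against 34.2, 72.2 and 10.97 CPM (log2 fold change 1.96 ± 0.60, adjusted p = 0.0149). The remaining member that was higher, Cyp3a16, was at 0.487, 0.662 and 1.12 against 0, 0.0392 and 0.0829 CPM (log2 fold change 3.21 ± 0.74, adjusted p = 0.00305), and it belongs to a family of close copies between which reads can be split. Cyp2e1, which oxidises ethanol, fell from 13933, 8122 and 13218 CPM to 306, 354 and 83.3 CPM (log2 fold change −5.57 ± 0.94, adjusted p = 3.4e-04).

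Genes of bile acid synthesis were lower with 1 exception. Of 15 tested members, 1 was higher and 14 lower (median −3.02). Cyp7a1, the rate-limiting enzyme of the classical pathway, was at 113, 25.7 and 269 CPM in fresh cells and 8.89, 3.13 and 1.08 CPM in HepOrgs (log2 fold change −4.95 ± 0.95, adjusted p = 8.5e-04). Cyp8b1, which directs synthesis to cholic acid, fell from 119.6, 616 and 537 CPM to 0.896, 0.331 and 0.322 CPM (log2 fold change −9.55 ± 0.89, adjusted p = 2.8e-06). Cyp7b1 of the alternative pathway and Akr1d1, a steroid reductase, had log2 fold changes of −6.79 and −4.28. The exception was Cyp39a1, an oxysterol hydroxylase, at 95.9, 86.2 and 76.6 CPM in HepOrgs and 9.49, 22.9 and 2.65 CPM in fresh cells (log2 fold change 2.89 ± 0.53, adjusted p = 6.3e-04).

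Transporters of the sinusoidal and canalicular membranes were mostly lower. Of 31 tested members, 4 were higher and 20 lower (median −1.58). Slc22a7, a basolateral organic anion carrier, fell from 342, 233 and 538 CPM to 0.154, 0.184 and 0.132 CPM (log2 fold change −10.86 ± 0.77, adjusted p = 3.5e-07). Slco1a1, which takes up bile acids and drugs, fell from 1448, 426 and 1555 CPM to 1.10, 0.699 and 0.435 CPM (log2 fold change −10.51 ± 0.83, adjusted p = 7.3e-07). The 4 members that were higher were the efflux pumps Abcc1, Abcc4 and Abcc5 and the glucose transporter Slc2a1. Abcc4, a basolateral exporter, was at 28.3, 35.3 and 62.7 CPM in HepOrgs and 0.407, 3.69 and 0.801 CPM in fresh cells (log2 fold change 4.71 ± 0.91, adjusted p = 9.0e-04), and Abcc1 and Abcc5 had log2 fold changes of 3.94 and 2.93. The glucose transporters split: Slc2a2, the adult liver GLUT2, fell from 685, 459.5 and 522 CPM to 1.95, 0.773 and 2.18 CPM (log2 fold change −8.35 ± 0.79, adjusted p = 3.2e-06). Slc2a1, the widely expressed GLUT1, rose from 21.9, 28.5 and 21.6 CPM to 139, 76.1 and 137 CPM (log2 fold change 2.29 ± 0.39, adjusted p = 3.4e-04).

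Genes of nitrogen disposal and glucose output were mostly lower. Of the urea cycle and ammonia list, 1 of 16 tested members was higher and 13 lower (median −3.02). Cps1, which starts the urea cycle, fell from 3792, 4807 and 3448 CPM to 23.7, 48.6 and 10.1 CPM (log2 fold change −7.19 ± 0.87, adjusted p = 2.5e-05). Arg1, its last enzyme, fell from 2547, 2341 and 1877 CPM to 18.9, 16.1 and 2.44 CPM (log2 fold change −7.49 ± 1.56, adjusted p = 0.00148), and HepOrg library 3 was the lowest for both. The mitochondrial arginase Arg2 was the member that was higher, at 12.04, 18.7 and 18.98 against 0.144, 0.628 and 0.304 CPM (log2 fold change 5.43 ± 0.85, adjusted p = 1.9e-04), although much of its exon sequence lies inside another gene and its counts are uncertain. Gls2, the liver glutaminase, had a log2 fold change of −7.27. In the list of gluconeogenesis and liver sugar metabolism, 0 of 19 tested members were higher and 17 lower (median −2.13). G6pc, whose product releases free glucose, was at 206, 593 and 322 CPM in fresh cells and 86.8, 88.3 and 80.7 CPM in HepOrgs (log2 fold change −2.13 ± 0.37, adjusted p = 4.4e-04). Tat, which degrades tyrosine, and Gckr, which holds glucokinase in the nucleus, had log2 fold changes of −5.07 and −4.90.

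Glycolysis isoforms found in most tissues were mostly higher. Of 21 tested members, 15 were higher and 1 lower (median 1.40). Pkm, the pyruvate kinase of dividing and non-liver cells, was at 570.1, 582 and 681 CPM in HepOrgs and 2.78, 12.6 and 8.56 CPM in fresh hepatocytes (log2 fold change 6.25 ± 0.53, adjusted p = 1.2e-06). Pfkp, a phosphofructokinase, was at 352, 266 and 434 CPM against 0.503, 3.14 and 1.44 CPM (log2 fold change 7.69 ± 0.58, adjusted p = 5.5e-07). Hexokinases Hk1 and Hk2 were at 14.4, 7.03 and 9.73 CPM and at 8.63, 9.57 and 13.6 CPM in HepOrgs, and had log2 fold changes of 3.72 and 4.73. The groups did not overlap for any of these 4 genes.

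The fatty acid oxidation list was mostly lower: of 31 tested members, 2 were higher and 28 lower (median −1.79). Cpt1a, which admits fatty acids to mitochondria, fell from 319, 189.5 and 247 CPM to 70.6, 46.3 and 53.5 CPM (log2 fold change −2.15 ± 0.33, adjusted p = 1.5e-04). Fabp1, the fatty acid carrier of liver, fell from 9783, 4548 and 8917 CPM to 566, 1267 and 340.1 CPM (log2 fold change −3.42 ± 0.66, adjusted p = 9.4e-04). The 2 members that were higher were Pdk4, a kinase that slows pyruvate oxidation (log2 fold change 2.13 ± 0.63, adjusted p = 0.0130), and the hormone Fgf21 (log2 fold change 2.03 ± 0.68, adjusted p = 0.0237). Both calls were lost without single libraries: Pdk4 had an adjusted p of 0.0524 without fresh library 3, and Fgf21 had adjusted p of 0.0777 and 0.0756 without HepOrg library 3 and fresh library 3, respectively.

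Lipid synthesis genes were more often lower than higher. Of 36 tested members, 3 were higher and 14 lower (median −0.47, but 0.23 on log2(TPM + 1)). Scd2, a desaturase of tissues other than adult liver, was at 419, 317 and 389 CPM in HepOrgs and 1.05, 4.36 and 1.88 CPM in fresh cells (log2 fold change 7.26 ± 0.52, adjusted p = 4.0e-07), while its liver relative Scd1 did not pass the threshold. Sqle, an early enzyme of sterol synthesis, was at 929, 1133 and 859 against 74.8, 238 and 179 CPM (log2 fold change 2.57 ± 0.37, adjusted p = 9.5e-05). Srebf1, which encodes SREBP1, Mlxipl, which encodes ChREBP, and Thrsp, a lipogenic nuclear protein, were lower, with log2 fold changes of −1.94, −2.72 and −2.70.

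Genes of hormone response were among those that fell. Ghr, the growth hormone receptor, fell from 1217, 968 and 1187 CPM to 81.4, 102 and 36.9 CPM (log2 fold change −3.93 ± 0.55, adjusted p = 7.6e-05), and 2 of 17 tested members were higher and 10 lower in its list (median −2.30, −2.94 without HepOrg library 1). Elovl3, a fatty acid elongase of male liver, fell from 253, 913 and 1599 CPM to 0.179, 0 and 0.303 CPM (log2 fold change −11.98 ± 1.30, adjusted p = 1.0e-05). Whether the sex of the donors plays a part was not tested. Igfbp3, another carrier of IGF, was one of the members that were higher, at 148, 80.3 and 288 CPM in HepOrgs and 2.85, 7.61 and 5.86 CPM in fresh cells (log2 fold change 4.98 ± 0.78, adjusted p = 1.9e-04); the other was Jak2 (log2 fold change 0.81 ± 0.27, adjusted p = 0.0234), which had adjusted p of 0.105, 0.0551 and 0.0503 without HepOrg library 2, fresh library 1 and fresh library 2, respectively. Hamp, which encodes the iron hormone hepcidin, fell from 1362, 172 and 974 CPM to 7.58, 3.39 and 13.8 CPM (log2 fold change −6.64 ± 1.55, adjusted p = 0.00314), and fresh library 2 was the lowest of the fresh libraries. In the iron list, 3 of 19 tested members were higher and 8 lower, with a median of −0.11 that became 0.46 on log2(TPM + 1).

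Both zonation lists were more often lower than higher. In the periportal list, 2 of 24 tested members were higher and 19 lower (median −5.64). In the pericentral list, 4 of 23 tested members were higher and 12 lower (median −0.78). Hal, which degrades histidine in periportal cells, fell from 368, 654 and 339 CPM to 0.845, 0.626 and 0.852 CPM (log2 fold change −9.10 ± 0.70, adjusted p = 6.1e-07). Etnppl, which degrades phosphoethanolamine, had a log2 fold change of −9.89. The 2 periportal genes that were higher were Cdh1, which encodes E-cadherin (log2 fold change 1.39 ± 0.40, adjusted p = 0.0118), and Apoa4 (log2 fold change 1.00 ± 0.18, adjusted p = 5.8e-04). Glul, the glutamine synthetase of the last pericentral cells, was at 119.6, 91.1 and 133 CPM in HepOrgs and 83.2, 206 and 129 CPM in fresh cells (log2 fold change −0.28 ± 0.37, adjusted p = 0.553), and these ranges overlapped. The 4 pericentral genes that were higher were Slc1a4, a neutral amino acid carrier (4.38), Ahr, Gstm3 (2.24) and Gstm2 (1.08), glutathione transferases. Gstm2 had adjusted p of 0.0806 and 0.0596 without HepOrg library 2 and fresh library 1, respectively. Whether the lists differ from each other was not tested.

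**Figure D3:**
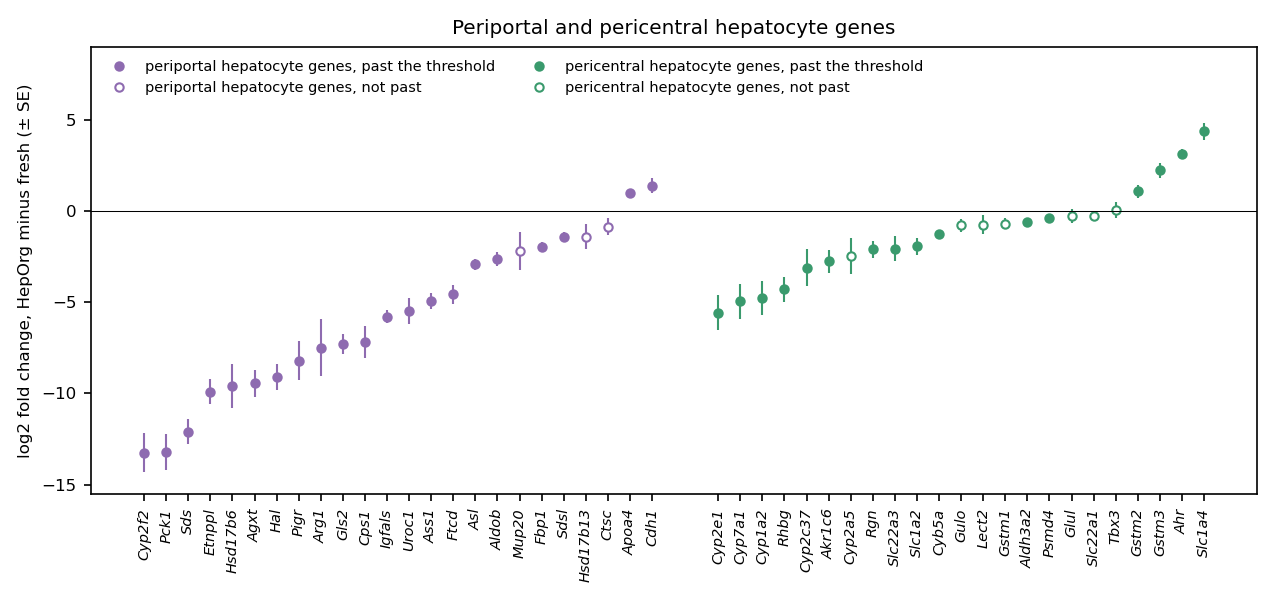
Log2 fold change (HepOrgs minus fresh) of each tested gene in the periportal and pericentral lists, one point per gene with bars of 1 SE, coloured by list, filled where the gene passed the threshold and open where it did not. Of the periportal genes, 18 lie below −2, whereas the pericentral genes spread around −0.78.

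The medium supplies Wnt agonists, and most feedback targets of the pathway did not pass the threshold. Of 17 tested members, 3 were higher, 3 lower and 11 not past it (median 0.05, 0.61 on log2(TPM + 1)). Either share, 17.6%, was below that of all tested genes, 24.9% higher and 24.8% lower. Axin2, a general feedback target, was at 1.41, 0.589 and 1.29 CPM in HepOrgs and 0.335, 0.471 and 0.801 CPM in fresh hepatocytes (log2 fold change 0.98 ± 0.53, adjusted p = 0.139). Lef1, a partner of beta-catenin on DNA, was at 13.1, 7.47 and 19.1 CPM in HepOrgs and 0.0719, 0 and 0.0276 CPM in fresh cells (log2 fold change 7.30 ± 1.13, adjusted p = 1.7e-04). Cd44, a hyaluronan receptor, and Tnfrsf19 were the others that were higher, with log2 fold changes of 1.75 and 1.502. Notum, a secreted Wnt inhibitor of pericentral cells, fell from 38.7, 44.97 and 57.5 CPM to 7.79, 10.6 and 12.6 CPM (log2 fold change −2.18 ± 0.32, adjusted p = 1.0e-04), and Prox1 and Rnf43 also fell (−0.74 and −0.62). Rnf43 had adjusted p of 0.169, 0.107, 0.164, 0.0507 and 0.0787 without HepOrg library 2, HepOrg library 3, fresh library 1, fresh library 2 and fresh library 3, respectively.

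Receptors for the medium's components were split: of 31 tested members, 5 were higher and 12 lower (median −0.26, 0.14 on log2(TPM + 1)). Without fresh library 3, 3 were higher. Erbb2, the EGF receptor partner, was at 5.81, 3.42 and 6.70 CPM in HepOrgs and 0.216, 0.863 and 0.276 CPM in fresh cells (log2 fold change 3.49 ± 0.56, adjusted p = 2.1e-04). Fgfr4 and Klb, the receptor and co-receptor for FGF15 and FGF21 in liver, had log2 fold changes of −4.45 and −4.12. Fzd6 was higher (1.41) and Fzd4 lower (−2.21). ERK feedback targets were more often higher: of 22 tested members, 12 were higher and 1 lower (median 1.35). Areg, an EGF family ligand, was at 32.2, 21.1 and 84.4 CPM in HepOrgs and 0.240, 0.157 and 0.0276 CPM in fresh cells (log2 fold change 7.91 ± 1.16, adjusted p = 1.1e-04). Ier3, an early response gene, was at 226, 112 and 247 against 0.743, 1.49 and 1.44 CPM (log2 fold change 7.28 ± 0.40, adjusted p = 7.8e-08). Dusp5, an ERK phosphatase, was at 5.61, 9.02 and 15.1 against 1.41, 0.746 and 0.884 CPM (log2 fold change 3.22 ± 0.60, adjusted p = 6.9e-04). The member that was lower was Errfi1, an inhibitor of the EGF receptor (log2 fold change −1.02 ± 0.34, adjusted p = 0.0223), with adjusted p of 0.0780, 0.0784 and 0.173 without HepOrg library 2, HepOrg library 3 and fresh library 1, respectively. Dusp4, another ERK phosphatase, did not pass the threshold (log2 fold change 0.60 ± 0.50, adjusted p = 0.341), but was higher without fresh library 1 (1.41 with adjusted p = 0.0310).

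In the list of TGF-beta and SMAD targets, a pathway that A83-01 inhibits, 7 of 24 tested members were higher and 7 lower (median 0.29). Smad6, an inhibitory SMAD, fell from 3.86, 2.43 and 2.82 CPM to 0.0768, 0.110 and 0.208 CPM (log2 fold change −4.09 ± 0.73, adjusted p = 5.0e-04), and Id3, a BMP target, from 318, 86.5 and 195 CPM to 34.5, 28.8 and 43.4 CPM (log2 fold change −2.49 ± 0.55, adjusted p = 0.00234). Ltbp3, which holds latent TGF-beta, was higher (log2 fold change 6.90). In the YAP and TEAD list, 12 of 27 tested members were higher and 3 lower (median 0.66, 1.39 without fresh library 1, 0.57 with a gene lacking counts in 1 group set at its bound). Ankrd1 was at 9.63, 14.02 and 5.28 CPM in HepOrgs and 0, 0.157 and 0 CPM in fresh cells (log2 fold change 6.77 ± 0.91, adjusted p = 5.5e-05). Ccn1, the other textbook target, was at 128, 119 and 59.95 CPM in HepOrgs and 311, 77.1 and 90.02 CPM in fresh cells (log2 fold change −0.64 ± 0.46, adjusted p = 0.260), with overlap.

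Cell-cycle genes were more often higher than lower. Of 52 tested members, 26 were higher and 3 lower (median 1.31). Cdk1, the mitotic kinase, was at 14.9, 20.02 and 17.8 CPM in HepOrgs and 2.30, 2.35 and 1.19 CPM in fresh cells (log2 fold change 3.15 ± 0.35, adjusted p = 1.2e-05), and Rrm2, a subunit of ribonucleotide reductase, was at 41.2, 45.6 and 42.7 against 7.72, 10.6 and 4.81 CPM (log2 fold change 2.48 ± 0.29, adjusted p = 1.6e-05). Ccnd2 was at 145, 106 and 160.0 against 1.10, 7.14 and 4.47 CPM (log2 fold change 5.01 ± 0.64, adjusted p = 3.9e-05). Ccnd1, the D cyclin that hepatocytes use in regeneration, was at 25.4, 14.9 and 40.6 against 116, 16.8 and 119 CPM (log2 fold change −1.64 ± 0.74, adjusted p = 0.0825), where fresh library 2 alone was as low as the HepOrgs. Without that library Ccnd1 was lower (−2.11 with adjusted p = 0.0188), and with all libraries it passed in DESeq2 (−1.63 with adjusted p = 0.0348). Mcm10 and E2f8, which act in replication and in cell-cycle repression, were lower (−6.77 and −4.69), and so was Mcm7 (log2 fold change −0.55 ± 0.19, adjusted p = 0.0263), which had adjusted p of 0.0950, 0.0623 and 0.132 without HepOrg library 2, HepOrg library 3 and fresh library 2, respectively.

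Cdkn1a and Cdkn2b, which encode inhibitors of the cell cycle, were higher as well. In the p53 and senescence list, 21 of 34 tested members were higher and 4 lower (median 1.38). Cdkn1a, which encodes p21, was at 134, 164 and 169.7 CPM in HepOrgs and 0.983, 4.59 and 4.56 CPM in fresh cells (log2 fold change 5.52 ± 0.48, adjusted p = 1.7e-06). Cdkn2b, which encodes p15, was at 56.2, 61.2 and 82.5 against 0.551, 0.275 and 0.221 CPM (log2 fold change 7.36 ± 0.54, adjusted p = 4.7e-07). Phlda3, a p53-induced inhibitor of AKT, and Pmaip1, the pro-apoptotic NOXA, had log2 fold changes of 8.28 and 5.93. The 4 members that were lower were Lmnb1, a nuclear lamin (−2.37), Sesn1 (−1.07), Bbc3 (−1.11) and Cdkn1b (−0.82). Bbc3 had adjusted p of 0.0776, 0.115, 0.209 and 0.0707 without HepOrg library 1, HepOrg library 2, fresh library 2 and fresh library 3, respectively, and Cdkn1b had adjusted p of 0.0837, 0.156, 0.147 and 0.115 without HepOrg library 1, HepOrg library 2, fresh library 1 and fresh library 3, respectively.

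In the list of ATF4 and the unfolded protein response, the highest members serve amino acid supply and the lowest serve the endoplasmic reticulum: of 32 tested members, 14 were higher and 7 lower (median 0.48). Slc7a11, which imports cystine, was at 75.5, 85.7 and 92.7 CPM in HepOrgs and 0.0959, 0 and 0.0276 CPM in fresh cells (log2 fold change 9.81 ± 1.06, adjusted p = 1.0e-05). Psat1 and Phgdh, the enzymes of serine synthesis, were at 237, 159.9 and 198 CPM and at 206, 101 and 219.6 CPM in HepOrgs, with log2 fold changes of 7.70 and 7.29. Chac1, which degrades glutathione, was at 49.1, 29.3 and 59.2 against 12.1, 1.26 and 4.78 CPM (log2 fold change 2.90 ± 0.60, adjusted p = 0.00140). Asns, the asparagine synthetase, was at 324, 234 and 319 against 1.17, 98.7 and 1.38 CPM (log2 fold change 3.12 ± 1.197, adjusted p = 0.0444), and fresh library 2 was far above the other fresh libraries. Asns had adjusted p of 0.0745, 0.0629, 0.0753, 0.0711 and 0.0783 without HepOrg library 1, HepOrg library 2, HepOrg library 3, fresh library 1 and fresh library 3, respectively. Herpud1, which acts in endoplasmic reticulum degradation, fell from 952, 579.5 and 489.6 CPM to 182, 301 and 154 CPM (log2 fold change −1.67 ± 0.37, adjusted p = 0.00219). Edem1 and Pdia4, which serve folding and degradation there, had log2 fold changes of −1.33 and −1.07. Hspa5, the chaperone BiP, was at 1329, 2277 and 1437 against 1101, 1839 and 1289 CPM (log2 fold change 0.25 ± 0.25, adjusted p = 0.426), and it overlapped between groups, although it passed as higher on log2(TPM + 1) in limma (0.78 with adjusted p = 0.00844). Atf4 itself was not past the threshold either (log2 fold change 0.33 ± 0.28, adjusted p = 0.348).

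The C/EBP-ATF response element was searched as TGATGNAAN on both strands of the same 250-base windows. It stood in 3.44% of all promoters and in any window of 3.89% of all genes. Over the tested genes it stood in 2.35% of those higher, 2.78% of those lower and 2.44% of the rest. In this list 7 of the 30 members with a window held it: 6 of the 13 that were higher, namely Asns, Chac1, Fgf21, Nupr1, Slc7a11 and Vldlr, 1 of the 7 that were lower, Herpud1, and 0 of the 10 not past the threshold. Nupr1, a stress-induced transcription regulator, and Vldlr, a lipoprotein receptor, had log2 fold changes of 5.89 and 2.81. The windows of 3 members that were higher and of Herpud1, which was lower, are shown because the motif occurs in both, with matches in capitals and letters on the strand of the gene. They lie at chr6:7693210-7693459 (minus strand) for Asns, chr2:119181473-119181722 (plus) for Chac1, chr3:50398063-50398312 (minus) for Slc7a11, which holds 2 matches, and chr8:95112807-95113056 (plus) for Herpud1, in GRCm39.
Asns: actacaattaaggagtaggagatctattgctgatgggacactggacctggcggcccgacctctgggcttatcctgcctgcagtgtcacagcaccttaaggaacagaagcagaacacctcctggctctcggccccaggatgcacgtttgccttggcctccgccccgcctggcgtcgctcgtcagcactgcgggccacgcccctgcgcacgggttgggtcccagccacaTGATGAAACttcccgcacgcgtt
Chac1: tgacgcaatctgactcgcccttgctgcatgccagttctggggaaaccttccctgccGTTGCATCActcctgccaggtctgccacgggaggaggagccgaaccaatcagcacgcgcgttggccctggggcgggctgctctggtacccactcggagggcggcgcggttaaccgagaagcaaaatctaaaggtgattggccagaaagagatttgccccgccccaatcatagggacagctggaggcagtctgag
Slc7a11: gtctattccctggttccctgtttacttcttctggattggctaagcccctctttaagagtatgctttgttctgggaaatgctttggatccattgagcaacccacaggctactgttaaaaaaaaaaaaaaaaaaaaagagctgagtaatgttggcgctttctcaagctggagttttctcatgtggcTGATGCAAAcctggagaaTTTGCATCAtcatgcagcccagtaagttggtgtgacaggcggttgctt
Herpud1: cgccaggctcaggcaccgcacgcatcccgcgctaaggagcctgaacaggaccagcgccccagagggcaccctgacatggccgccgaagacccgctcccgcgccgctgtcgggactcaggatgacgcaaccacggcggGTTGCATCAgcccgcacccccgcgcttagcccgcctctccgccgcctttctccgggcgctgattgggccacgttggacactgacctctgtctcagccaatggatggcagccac

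**Figure D4:**
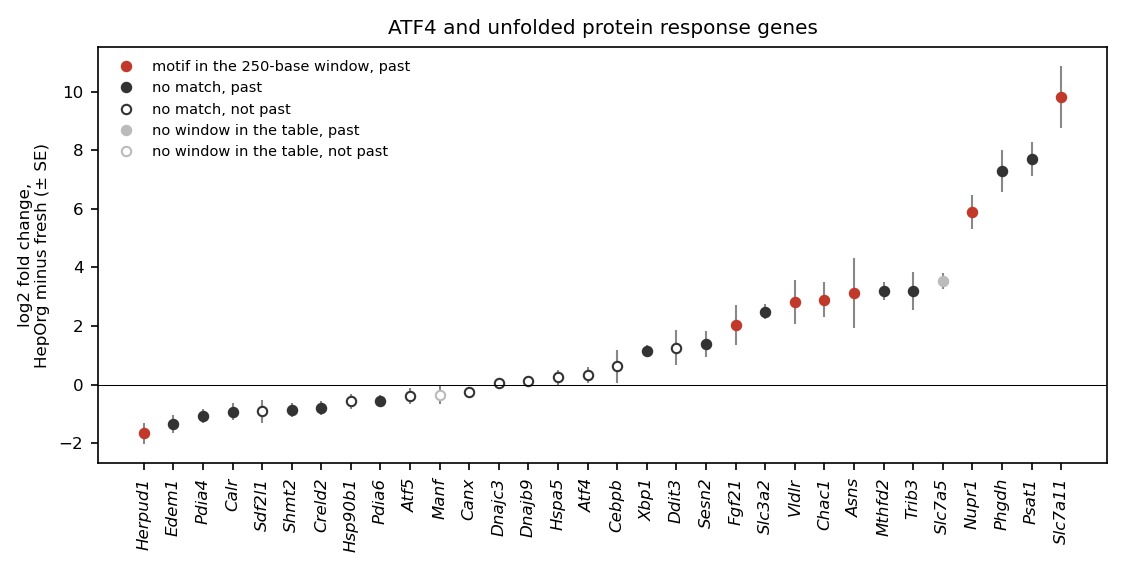
Log2 fold change (HepOrgs minus fresh, bars are 1 SE) of the members of the ATF4 and unfolded protein response list, with members whose promoter window holds TGATGNAAN marked. Slc7a11, Psat1 and Phgdh are the highest, and Herpud1 is the lowest.

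Among NRF2 targets and glutathione genes, of 39 tested members, 17 were higher and 7 lower (median 0.41). Nfe2l2, which encodes NRF2, was at 125, 117 and 146 CPM in HepOrgs and 75.99, 67.1 and 47.7 CPM in fresh cells (log2 fold change 1.03 ± 0.16, adjusted p = 2.1e-04). Cbr3, a carbonyl reductase, and Gsta1 were higher (5.84 and 4.45), while Gsta2, which is close to Gsta1 in sequence, was lower (−4.24), so counts may be split between these relatives. Cat, encoding catalase, fell from 4634, 4403 and 4551 CPM to 759.6, 789 and 658 CPM (log2 fold change −2.62 ± 0.17, adjusted p = 1.8e-07). Gclm, a subunit of the enzyme that limits glutathione synthesis, fell from 366, 301 and 307 CPM to 54.02, 133 and 157 CPM (log2 fold change −1.502 ± 0.34, adjusted p = 0.00239).

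Acute phase genes were more often higher than lower. Of 27 tested members, 12 were higher and 3 lower (median 0.93). Lcn2, which binds bacterial siderophores, was at 2198, 882 and 1969.9 CPM in HepOrgs and 4.39, 21.1 and 3.45 CPM in fresh cells (log2 fold change 7.45 ± 0.75, adjusted p = 5.5e-06). Serpina3n, a protease inhibitor, was at 2015, 2750.0 and 1394 against 259, 320.4 and 204 CPM (log2 fold change 2.97 ± 0.36, adjusted p = 2.4e-05). Orm2 and Il1rn had log2 fold changes of 4.94 and 3.89. Saa1, a serum amyloid, was at 109.5, 197 and 93.2 against 122, 815 and 112 CPM (log2 fold change −1.39 ± 0.92, adjusted p = 0.225), and only fresh library 2 was high. In the interferon list, 3 of 33 tested members were higher and 8 lower (median −0.26, 0.29 on log2(TPM + 1)), and 5 were lower without HepOrg library 2. Usp18, Ifi44 and Oas1a were higher (2.62, 2.98 and 3.56), although the exons of Oas1a lie inside another gene and its counts are uncertain. Immediate early genes can be induced by isolation itself. Of 35 tested members, 9 were higher, 6 lower and 20 not past the threshold (median −0.34, 0.84 on log2(TPM + 1)). These shares, 25.7% higher and 17.1% lower, stand beside 24.9% and 24.8% of all tested genes. Fos was at 733, 66.8 and 83.8 CPM in fresh cells and 255, 176 and 24.4 CPM in HepOrgs (log2 fold change −0.96 ± 1.03, adjusted p = 0.459), with fresh library 1 the highest. Without fresh library 1 the median of this list was 1.09 and 15 members were higher, and without HepOrg library 3 only 1 was lower. Klf4 and Fosl2 were higher (5.29 and 3.11). In the clock list, 2 of 18 tested members were higher and 7 lower (median −1.05, −0.31 without fresh library 1, 0.02 on log2(TPM + 1)), and 4 were lower without fresh library 1.

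Fetal liver and regeneration genes were mostly higher: of 22 tested members, 20 were higher and 1 lower (median 4.09, 4.73 without fresh library 2). Afp, which encodes alpha-fetoprotein, was at 2235, 402 and 3274 CPM in HepOrgs and 5.06, 4.08 and 5.47 CPM in fresh hepatocytes (log2 fold change 8.64 ± 1.18, adjusted p = 6.3e-05), and HepOrg library 2 was the lowest of its group. Spp1, which encodes osteopontin, was at 4911, 13198 and 8666 against 1.56, 105.4 and 19.7 CPM (log2 fold change 7.73 ± 1.24, adjusted p = 2.2e-04). Cd24a, a surface protein of progenitors, was at 43.5, 30.5 and 60.9 against 0.0240, 0.589 and 0.193 CPM (log2 fold change 7.30 ± 0.80, adjusted p = 1.1e-05). Spp1 and Cd24a are also members of the list of further cholangiocyte markers below, so the lists are not separate. The member that was lower, Tff3, an intestinal and biliary trefoil factor, was at 0.192, 18.5 and 0.442 CPM in fresh cells and 0.768, 0.589 and 0.473 CPM in HepOrgs (log2 fold change −3.28 ± 1.29, adjusted p = 0.0493). Only fresh library 2 was high, and Tff3 had adjusted p of 0.0962, 0.117, 0.126 and 0.373 without HepOrg library 1, HepOrg library 2, HepOrg library 3 and fresh library 2, respectively.

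Genes of the cytoskeleton and cell surface were more often higher. In the keratin and intermediate filament list, 8 of 18 tested members were higher and 1 lower (median 0.97, 1.76 without fresh library 2). Krt8 and Krt18, the keratin pair of hepatocytes, were at 800.4, 936 and 658 CPM and at 939, 1802 and 1019 CPM in HepOrgs (1.10 and 1.64), and Vim, encoding vimentin, was at 16.6, 21.8 and 30.01 against 0.455, 4.43 and 2.21 CPM (log2 fold change 3.28 ± 0.70, adjusted p = 0.00181). In the annexin and S100 list, 8 of 16 tested members were higher and 2 lower (median 0.66). Anxa2, a membrane-binding protein, was at 513, 534 and 751 CPM in HepOrgs and 1.63, 9.22 and 7.62 CPM in fresh cells (log2 fold change 6.60 ± 0.54, adjusted p = 9.2e-07). S100a6 and S100a11, small calcium-binding proteins, had log2 fold changes of 7.01 and 6.85. In the tetraspanin list, 10 of 23 tested members were higher and 3 lower (median 1.00). Cd63, a protein of late endosomes and exosomes, was at 459, 732 and 697 CPM in HepOrgs and 0.935, 3.37 and 3.04 CPM in fresh cells (log2 fold change 7.99 ± 0.46, adjusted p = 7.8e-08). The 3 members that were lower included Tspan12 (−1.22) and Cd82 (−0.66).

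Junction genes were balanced: 14 of 48 tested members were higher and 15 lower (median −0.04, 0.51 on log2(TPM + 1)). Gja1, the connexin 43 of many epithelia, was at 33.2, 164 and 64.04 CPM in HepOrgs and 0.623, 2.83 and 2.82 CPM in fresh cells (log2 fold change 5.37 ± 0.78, adjusted p = 1.1e-04). Gjb1, the main connexin of hepatocytes, fell from 913, 1397 and 1158 CPM to 241, 195 and 237 CPM (log2 fold change −2.37 ± 0.25, adjusted p = 7.4e-06). The connexins therefore differed in direction. Cldn4 had 3 counts in all fresh libraries and was 448-fold higher by the ratio of summed levels, with an exact 95% counting interval of 153 to 2174, Cldn7 had a log2 fold change of 5.39, and Cldn1 fell from 86.1, 157 and 182 CPM to 49.5, 38.7 and 37.9 CPM (log2 fold change −1.75 ± 0.34, adjusted p = 0.00101). Dpp4 and Ceacam1, proteins of the canalicular face, fell (−3.41 and −2.56). In the integrin and laminin list, 13 of 27 tested members were higher and 7 lower (median 0.34), with 4 lower without HepOrg library 2. Itga6, a chain of laminin receptors, had a log2 fold change of 4.60 and Itga1, a collagen receptor, of −1.39. Mitochondrially encoded genes were lower for 9 of 13 members (median −1.02), among them mt-Nd5 at 4946, 8713 and 5368 CPM in fresh cells and 2065, 2086 and 1257 CPM in HepOrgs (log2 fold change −1.82 ± 0.30, adjusted p = 3.1e-04).

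Markers of other liver cells moved with the groups, and their part in the results above was not tested. The further cholangiocyte markers summed to 5131, 13500.4 and 8912 CPM in HepOrgs and 58.9, 201 and 90.1 CPM in fresh cells, and Spp1 alone made up most of the HepOrg sum. Of 17 tested members, 10 were higher and 3 lower (median 5.39, 4.96 with genes lacking counts in 1 group set at their bounds). Aqp1, a water channel of bile duct cells and other cells, had no count in HepOrgs and 9.23, 44.97 and 27.3 CPM in fresh cells, at least 334-fold lower. Mmp7, a biliary protease named here after its values were seen, was at 3.33, 92.5 and 0.0568 CPM in HepOrgs and had no count in fresh cells, so 1 library carried it (adjusted p = 0.0561, and 0.0453 without HepOrg library 3). The cholangiocyte markers that the study used summed to 51.5, 83.7 and 60.05 CPM in HepOrgs and 14.3, 25.7 and 10.97 CPM in fresh cells (median 2.94, 3.95 without fresh library 2), and none of the 6 was lower. Epcam, Prom1 and Ezr were the 3 that were higher. Sox9 was at 13.2, 18.4 and 13.5 against 8.84, 20.6 and 6.80 CPM (log2 fold change 0.32 ± 0.34, adjusted p = 0.448). Krt7 was at 3.43, 3.35 and 0.114 against 0, 0.706 and 0.193 CPM (log2 fold change 2.84 ± 1.65, adjusted p = 0.169). Neither Sox9 nor Krt7 passed the threshold, and both overlapped between the groups. Epcam was at 10.4, 15.2 and 7.04 CPM in HepOrgs and 0, 0.392 and 0.221 CPM in fresh cells (log2 fold change 5.55 ± 1.16, adjusted p = 0.00150). Ezr had adjusted p of 0.0588 and 0.0613 without fresh library 2 and fresh library 3, respectively. Krt19 was at 4.89, 3.61 and 1.25 against 0, 0.746 and 0.387 CPM (log2 fold change 3.03 ± 1.22, adjusted p = 0.0538). Krt19 passed in DESeq2 (3.12 with adjusted p = 0.0300) and with adjusted p of 0.0489 and 0.0493 without HepOrg library 3 and fresh library 2, respectively.

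Markers of the cells that surround hepatocytes in the liver were mostly lower in HepOrgs. All 16 endothelial markers were lower (median −5.17), and their summed CPM was 108.8, 67.7 and 91.95 in HepOrgs and 376, 567 and 603 in fresh cells, of which Plpp3 gave most in HepOrgs. Kdr, the VEGF receptor of endothelium, had no count in HepOrgs and 9.18, 42.4 and 32.6 CPM in fresh cells, at least 345-fold lower. Clec4f, a receptor specific to Kupffer cells, had no count in HepOrgs and 16.7, 117 and 68.1 CPM in fresh cells, at least 828-fold lower. In the Kupffer cell and leukocyte list, 1 of 20 tested members was higher and 17 lower (median −6.99, −5.38 without fresh library 2, −6.75 with such genes at their bounds). The member that was higher was Cd68, a lysosomal protein (log2 fold change 1.89 ± 0.63, adjusted p = 0.0230), which had adjusted p of 0.0708 and 0.0668 without fresh library 1 and fresh library 3, respectively. The summed CPM of this list was 41.2, 60.7 and 62.8 in HepOrgs, mostly from H2-Ab1 and Cd68, against the fresh values given above, and 10 of its genes had no count in any HepOrg library. In the stellate cell list, 0 of 12 tested members were higher and 7 lower (median −3.23, −3.94 without HepOrg library 3), and its markers summed to 80.6, 52.4 and 142 against 65.04, 319 and 245 CPM, with fresh library 1 the lowest fresh library and the ranges overlapping. Dcn, encoding decorin, fell from 15.4, 103 and 71.8 CPM to 3.71, 6.48 and 9.31 CPM (log2 fold change −3.27 ± 0.94, adjusted p = 0.0114). The mesenchyme markers of the study summed to 37.6, 41.3 and 90.04 CPM in HepOrgs and 6.09, 41.8 and 24.1 CPM in fresh cells, and Vim was the 1 of 9 that was higher. The median of that list was 0.39 with all libraries and −1.71, −0.07 and 1.12 without HepOrg library 3, fresh library 1 and fresh library 2, respectively. Of the 2 red cell markers tested, Hba-a1, an alpha globin, was lower, with no count in HepOrgs and 0.407, 28.5 and 1.52 CPM in fresh cells, at least 125-fold lower.

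**Figure D5:**
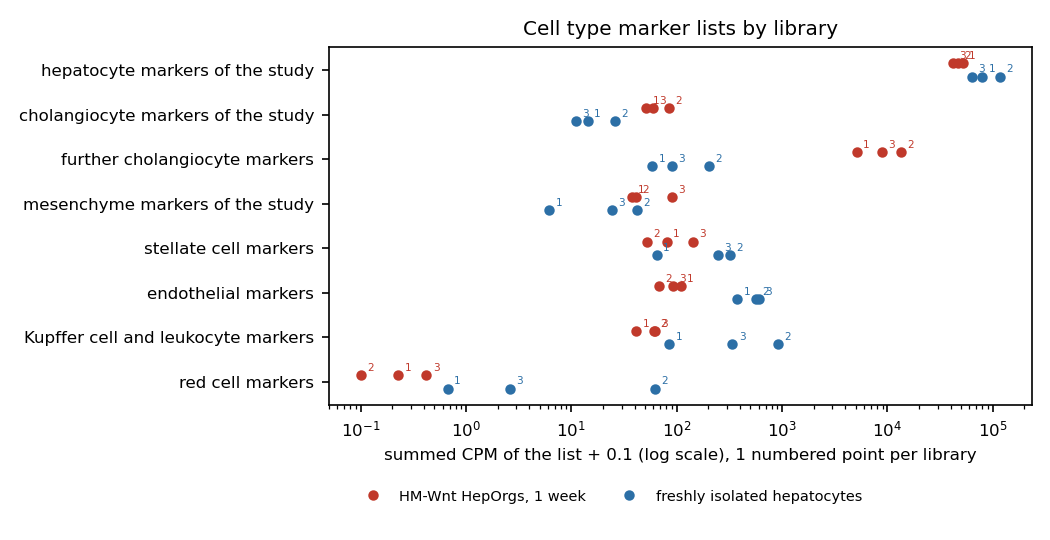
Summed CPM, on a log axis, of each cell type marker list, plus 0.1, with 1 numbered point for each of the 6 libraries. The further cholangiocyte list is higher in all HepOrg libraries, and the endothelial list lower, while fresh library 2 is highest for the Kupffer cell, stellate cell and red cell lists.

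Set beside the HepOrg groups most like them, the HM-Wnt HepOrgs at 1 week had no gene past the threshold against those kept 2 weeks in the same medium (0% of tested genes in edgeR), although 1059 had an unadjusted p under 0.05. Moving HepOrgs for 1 week to the medium MM, in which basal medium holds only WNT3a conditioned medium and the ROCK inhibitor, changed 1.86% of genes, 164 higher and 86 lower in MM. Of the genes named above, some that were lower in HM-Wnt than in fresh cells were higher in MM than in HM-Wnt, among them Slc2a2 (log2 difference 5.34 ± 0.70, adjusted p = 0.00433), Cyp8b1 (log2 difference 4.39 ± 0.73, adjusted p = 0.0156) and Apoa5 (log2 difference 3.69 ± 0.56, adjusted p = 0.00925). Others that were higher in HM-Wnt were lower in MM, among them Afp (log2 difference −4.59 ± 0.98, adjusted p = 0.0355), Akr1c18 (log2 difference −2.93 ± 0.42, adjusted p = 0.00719) and Rrm2 (log2 difference −1.36 ± 0.27, adjusted p = 0.0283). Movement away from fresh levels in MM also occurred among list members not named here. How many genes moved toward or away from fresh levels was not counted, so these examples show no general direction. The comparisons with 2 weeks and with MM share the HM-Wnt libraries with the main one. Neither was run with the replicate number as a block.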

How the data were processed

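RNA libraries were prepared by the study with SMART-seq2 and Nextera chemistry. Reads were aligned to GRCm39 with STAR and assigned to genes with featureCounts. The authors deposited whole-number counts per gene and library, together with TPM values that they made from the counts and a gene length, and both were used as deposited. For 80.4% of 21705 genes the length differs by at most 5% from the full span with introns, so TPM are not per exon length. The table holds 37 libraries, of which 27 were mapped to samples by title and 10 were not used in any step. Samples were grouped by title.

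The counts were tested with edgeR 4.0.16 in R 4.3.3. TMM factors were used, genes were kept by filterByExpr (at least 10 counts, at least 15 in total), the prior count was 2, and the quasi-likelihood model was fitted with robust estimation. Benjamini-Hochberg adjustment ran over all genes tested, with 0.05 as the threshold. The 12 HepOrg and 3 freshly isolated libraries entered 1 fit with a mean per group, and the SE is the absolute log2 fold change over the square root of F. CPM are edgeR's scaled counts on the TMM-corrected library size. Where a group had 0 counts the fold is a bound at 3 counts per library, and where it had 1 to 3 counts in all a ratio with an exact 95% Poisson interval is given. Positions follow GENCODE M39. Promoter windows came from a RefSeq table for GRCm38.p6 and were placed in GRCm39 by matching their sequence. Of the symbols in the lists, 3 were matched through older symbols.

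The libraries, the gene lists and the motifs were chosen with earlier results of these data known, so no list is independent support for its direction. Genes were named by these rules: the 10 highest and 10 lowest log2 fold changes of genes that passed, whose mean log2 CPM reached 5 and whose groups did not overlap, without Gm and Rik models and bare identifiers; from each list its first member, members with the highest and lowest log2 fold changes past the threshold and the remaining members where few were counted; the 5 genes highest in TPM in each group; and the 5 with the highest level not past the threshold. Some genes that these rules name are not reported here. The alternatives were RLE size factors, DESeq2 1.42.0, other filters, limma 3.58.1 on the log2 TPM with pseudocounts of 1 and 0.1 (genes reaching 1 TPM in 3 libraries), a limit on the fold change, other sets of libraries, the replicate block and leaving out each library. The scripts were tested on simulated counts.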

Additional observations from a re-analysis of the deposited data

How the results depend on the processing

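The 6658 genes past the threshold (3335 higher, 3323 lower) were within 1.5 times of 6644 with RLE size factors, 7101 with DESeq2, 5028 with at least 10 counts in every library, 6554 without a filter on low counts, 4937 with only the 6 libraries compared and 4677 with a log2 fold change of at least 1. Leaving out 1 library gave 5897 to 6514 genes, 2941 to 3360 higher and 2946 to 3154 lower. The fit of all 27 libraries gave 2880 genes (1637 higher, 1243 lower). On log2(TPM + 1) and log2(TPM + 0.1), 1280 and 1273 genes were lower, and 76.5% and 77.2% of calls were higher. The causes of these differences were not tested.

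The labels do not say that replicate numbers pair the libraries, and same-numbered libraries of the groups correlated at 0.134, −0.0463 and −0.0296 in their deviations from the group means, so no pairing was assumed. With the replicate number as a replicate block, 6935 genes passed among the 15 libraries, and 4319 among the 6 libraries (2088 higher, 2231 lower).

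Of 191 genes named, 173 passed the threshold. Without at least 1 library 15 of them lost the call, and in the fit of all 27 libraries 44 did. Of the 18 named genes not past it, 8 passed under at least 1 alternative (Ahsg, Ccnd1, Dusp4, Fga, Hspa5, Krt19, Mmp7 and Scd1), and 4 of these without 1 library. For 63 of the 173 the fold moved by over 1.5 times without at least 1 library. Without 1 library the log2 fold change of Tff3 ranged from −3.84 to 0.87, turning without fresh library 2, and no other named gene that passed the threshold changed sign in any alternative. The medians of the lists of cholesterol and fatty acid synthesis, iron, medium receptors, clock, immediate early, interferon and junction genes changed sign on the TPM scales. Without 1 library the medians of the iron, Wnt, medium receptor, interferon, junction, immediate early and mesenchyme lists changed sign. Depth limits what can be said of genes with 0 to 3 counts in a group, for which only bounds or counting intervals are given, and these cover counting error only.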
